A study of Homo sapiens with 8 samples.

Results

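The HOX genes encode homeodomain transcription factors and lie in 4 clusters in the human genome. HOX genes were taken by name, as every listed member of the HOXA, HOXB, HOXC and HOXD clusters that the probe annotation named. No expression value was used to choose among them, but the family was chosen with earlier results of these data known. Of 38 listed genes, 27 were measured, among 14884 named genes on the arrays. These were 1 of 10 HOXA genes, 10 of 10 HOXB genes, 7 of 9 HOXC genes and 9 of 9 HOXD genes. HOXA3, HOXA4, HOXA5, HOXA6, HOXA7, HOXA9, HOXA10, HOXA11, HOXA13, HOXC5 and HOXC6 were not analysed here, so that HOXA2 stands alone for its cluster.

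Expression was measured on microarrays in SK-ES1 and A673, established cell lines from Ewing sarcoma, a tumour of bone and soft tissue that depends on a fused EWSR1-ETS transcription factor, usually EWSR1-FLI1. Cells expressed a short hairpin RNA that targets RING1B (shRING1B) or, as the control, one that targets GFP (shGFP). The 4 groups were SK-ES1 shRING1B, SK-ES1 shGFP, A673 shRING1B and A673 shGFP, with 2 arrays each. Both hairpin conditions therefore carry a short hairpin, and no array came from cells without one. The hairpin sequences, the time after their introduction and the number of clones are not stated in the labels. The level of RNF2, the gene that encodes RING1B, was not analysed here, so unequal depletion and unequal response of the lines cannot be told apart.

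Within a cluster the genes are ordered as they are used along the body axis, with low-numbered genes acting in the hindbrain and high-numbered genes in the trunk, tail and limbs. Polycomb repressive complex 1, in which RING1B is the ubiquitin ligase for histone H2A, and Polycomb repressive complex 2 are best known for keeping HOX genes silent where they are not used. Ewing sarcoma is known for high expression of posterior HOXD genes. The comparisons ask how the level of each HOX gene differed between the hairpins in each line, and how the lines differed under the control hairpin.

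All values are log2 levels, in which a difference of 1 is a doubling, and where several probe sets share a gene the one with the highest mean was used. Probe sets differ in how well they bind, so levels are compared within a gene across groups and not between genes. Array medians over all probe sets were 4.01 to 4.10. The labels do not say whether the 2 arrays of a group come from separate cultures, and the p-values then reflect only array-to-array spread, which may be technical. On each array 10632 to 10851 of the 14884 named genes lay above the array median, so a level above it is common. Of the 7 Ewing sarcoma markers listed, 5 were measured (CD99, NKX2-2, STEAP1, CCND1 and BCL11B), and all 5 lay above the array median on all 8 arrays. The mean level over the 5 ran from 8.68 to 8.81 in SK-ES1 and from 9.22 to 9.37 in A673. Of the markers of other cells, CD14, 1 of 3 leukocyte markers, lay below the array median on all arrays, at 3.12 to 3.64. The 2 of 3 endothelial markers measured were at 3.02 to 4.28, on both sides of the median. Of the 2 of 3 epithelial markers measured, KRT5 was at 3.11 to 3.83, below the median, and EPCAM at 4.38 to 4.92, above it on all 8 arrays. No member of these marker lists was called in either knockdown comparison. The arrays are of bulk RNA, in which fewer cells of a type and less RNA per cell cannot be told apart.

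The promoter windows of 11 of the 27 measured HOX genes were found in RefSeq's annotation of GRCh38.p14. Each window runs from 250 bases before the gene's start to 50 bases after it. The windows of HOXA2, HOXD11 and HOXD13 are shown because HOXA2 was called in the knockdown of A673, while HOXD11 and HOXD13 are members of 1 cluster, with HOXD12 between them, whose changes under the RING1B hairpin lay on opposite sides of 0 in A673. They are printed on the strand of the gene, and capitals mark CG dinucleotides. HOXA2 lies on the minus strand at chr7:27102634-27102933, HOXD11 on the plus strand at chr2:176107030-176107329 and HOXD13 on the plus strand at chr2:176092471-176092770.
HOXA2: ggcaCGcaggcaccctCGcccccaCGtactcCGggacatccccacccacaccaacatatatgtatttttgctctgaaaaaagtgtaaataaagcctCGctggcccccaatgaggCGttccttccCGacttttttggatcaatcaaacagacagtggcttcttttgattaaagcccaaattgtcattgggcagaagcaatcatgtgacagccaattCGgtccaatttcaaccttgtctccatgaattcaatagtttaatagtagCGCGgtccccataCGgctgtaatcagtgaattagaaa
HOXD11: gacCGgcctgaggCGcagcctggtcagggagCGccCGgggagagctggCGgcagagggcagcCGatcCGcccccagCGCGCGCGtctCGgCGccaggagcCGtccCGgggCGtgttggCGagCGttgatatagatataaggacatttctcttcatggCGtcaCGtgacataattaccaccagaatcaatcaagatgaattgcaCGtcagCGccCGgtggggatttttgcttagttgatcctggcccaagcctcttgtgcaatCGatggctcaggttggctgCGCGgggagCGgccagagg
HOXD13: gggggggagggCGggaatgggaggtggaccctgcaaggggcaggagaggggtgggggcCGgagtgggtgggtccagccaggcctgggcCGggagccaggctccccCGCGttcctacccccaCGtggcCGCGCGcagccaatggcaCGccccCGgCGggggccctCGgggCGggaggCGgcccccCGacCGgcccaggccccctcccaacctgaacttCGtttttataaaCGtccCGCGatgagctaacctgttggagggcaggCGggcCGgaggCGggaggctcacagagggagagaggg

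HOXA2 had 11 CG dinucleotides in its window, HOXD11 had 27 and HOXD13 had 24. The median over the 35116 windows of the table was 14, and 54.7%, 28.2% and 33.9% of all windows held at least as many as those of HOXA2, HOXD11 and HOXD13. Over the 11 HOX windows the count ran from 4, in HOXD4, to 36, in HOXD1, with a median of 23, and 8 of 11 were at or above the median of all windows. The letters GGAA, which are the core that ETS factors such as FLI1 bind, were searched on both strands (as GGAA or TTCC, overlaps counted). They were found in 9 of 11 HOX windows and in 95.5% of all windows. GGAAGGAA, the same letters 2 times in a row on either strand, was found in 1 HOX window, that of HOXA2, and in 3.67% of all windows. These matches describe letters in the windows, and binding was not measured.

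In A673 cells, 3 HOX genes fell under the RING1B hairpin and none rose by limma's test. They were HOXA2, which patterns the hindbrain and the second pharyngeal arch, and the neighbours HOXB8 and HOXB9, which in mouse act in the thoracic region. The 3 calls are 11.1% of the measured HOX genes, against 3.74% of all genes called in this comparison and 3.04% called lower. At an unadjusted p under 0.05 the fit gave 7 of the 27 HOX genes, 3 above 0 and 4 below, where 18.9% of all genes passed.

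HOXA2 had 4.23 and 3.93 on the A673 shRING1B arrays, against 4.89 and 5.19 on the A673 shGFP arrays. The groups did not overlap, and the shRING1B arrays lay close to the array median. HOXA2 fell by 0.96 on the log2 scale (SE 0.18, limma adjusted p = 0.0183), and no fold is given because levels near the array median were not shown to be above background. The level of HOXA2 was lower still in SK-ES1, with 3.71 and 3.59 on the shRING1B arrays and 3.15 and 3.60 on the shGFP arrays. All 4 SK-ES1 values lay below their array's median, and the hairpin groups overlapped. The change in SK-ES1 was 0.27 (95% interval -0.12 to 0.66, limma adjusted p = 0.819).

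HOXB8 had 4.31 and 4.57 on the A673 shRING1B arrays, against 5.08 and 5.19 on the A673 shGFP arrays, with no overlap. It fell by 0.70 (SE 0.14, limma adjusted p = 0.0252). No fold is given, because its shRING1B levels lay not far above the array medians of 4.07 and 4.01. In SK-ES1 the values of HOXB8 were 4.44 and 4.64 under shRING1B, against 4.61 and 4.81 under shGFP. Those groups overlapped, and the change was -0.17 (95% interval -0.47 to 0.14). HOXB8 had the lowest adjusted p of the HOX genes in the mean of both lines' effects, with a mean change of -0.43 (SE 0.10, limma adjusted p = 0.0644). No HOX gene was called for the mean effect, in which 1.36% of all genes were called. For this effect 4 of the 27 HOX genes, all below 0, had an unadjusted p under 0.05. Over all genes 14.5% did, so the HOX count is near that share.

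HOXB9 lies next to HOXB8. Its values were 6.70 and 6.78 on the A673 shRING1B arrays, against 7.26 and 7.33 on the A673 shGFP arrays. HOXB9 fell by 0.56 (SE 0.12, limma adjusted p = 0.0354), or 1.47 times lower. In SK-ES1 the arrays lay the other way round, with 7.96 and 8.14 under shRING1B against 7.77 and 7.94 under shGFP. The SK-ES1 change of HOXB9 was 0.19 (95% interval -0.08 to 0.46).

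The 3 A673 calls depended on single arrays. Without A673 shGFP replicate 2 none was called (adjusted p of 0.187 for HOXA2, 0.208 for HOXB8 and 0.239 for HOXB9), without A673 shGFP replicate 1 HOXB8 (0.0715) and HOXB9 (0.109) lost the call, without A673 shRING1B replicate 1 HOXB8 (0.116) and HOXB9 (0.129), and without A673 shRING1B replicate 2 HOXA2 (0.0913) and HOXB9 (0.0866). When only the 4 A673 arrays were fitted, HOXB8 (0.0653) and HOXB9 (0.0753) lost it, and with dim genes left out HOXA2 was not tested.

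**Figure D1:**
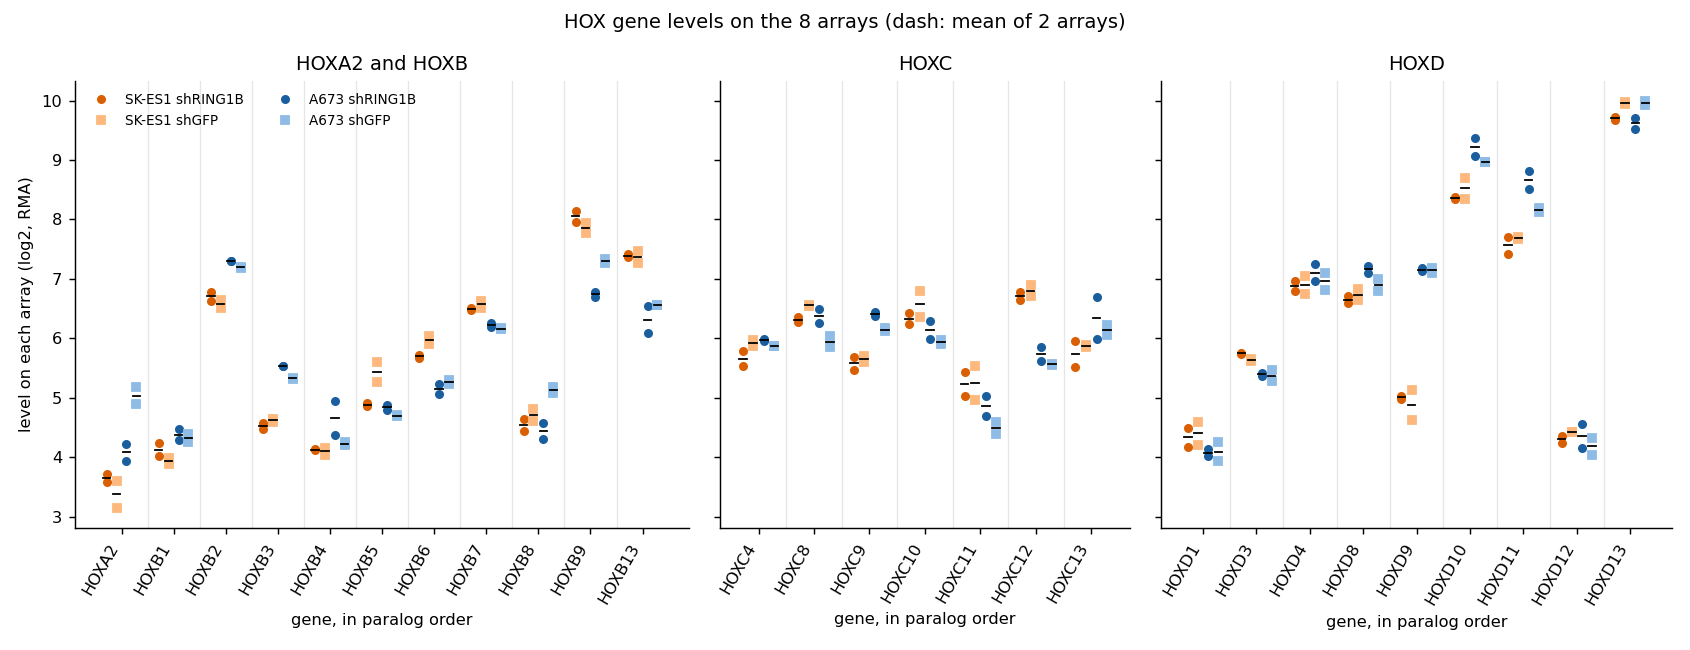
Level of each measured HOX gene on each of the 8 arrays (log2, vertical axis), by cluster and paralog order, for SK-ES1 shRING1B, SK-ES1 shGFP, A673 shRING1B and A673 shGFP from left to right within a gene, with 1 point per array and a dash at the mean of 2 arrays. HOXA2, HOXB8 and HOXB9 show A673 shRING1B arrays below both A673 shGFP arrays, and HOXD9 shows SK-ES1 arrays at 4.63 to 5.13 against A673 arrays at 7.10 to 7.19.

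The other HOX genes were not called in A673, and most of their values lay above 0. Over the 27 genes, 20 had a change above 0 in A673 and the median was 0.14, against a median of 0.012 and 52.2% above 0 over all genes. Both A673 shRING1B arrays lay above both A673 shGFP arrays for 14 HOX genes and below them for 6, where this held for 26.0% and 23.9% of all genes. Members of 1 cluster are close neighbours with related sequences, so their values are not independent of each other, and probe sets that pick up more than 1 paralog were not tested for.

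The HOXC genes in mouse pattern the thoracic to sacral spine. Every one of the 7 measured had a change above 0 in A673 and below 0 in SK-ES1, where 25.9% of all genes did. In A673 the HOXC changes ran from 0.10 to 0.43 with a median of 0.21, and for 6 of 7 both shRING1B arrays lay above both shGFP arrays, where 26.0% of all genes did. In SK-ES1 they ran from -0.26 to -0.019 with a median of -0.13, and for 2 of 7 both shRING1B arrays lay below both shGFP arrays, where 19.3% of all genes did. The signs were not kept by every gene in the 15 alternatives: in SK-ES1 HOXC11 kept its sign in 12 and HOXC9, HOXC12 and HOXC13 in 14 each, and in A673 HOXC13 in 14. No HOXC gene was called in either line by limma. In A673 1 of them, HOXC8, had an unadjusted p under 0.05, where 18.9% of all genes did, and in SK-ES1 none.

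HOXC8 acts in the thoracic skeleton and in motor neurons in mouse. In SK-ES1 it had 6.27 and 6.35 under shRING1B, against 6.55 and 6.56 under shGFP, a change of -0.24 (95% interval -0.52 to 0.04). In A673 it had 6.26 and 6.49 under shRING1B, against 6.04 and 5.85 under shGFP, a change of 0.43 (95% interval 0.15 to 0.71, limma adjusted p = 0.0943). The arrays did not overlap in either line and lay on opposite sides.

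Among the HOXD genes, 7 of 9 had a change above 0 in A673 (median 0.15) and 2 of 9 in SK-ES1 (median -0.08), with none called. The A673 median was 0.023 when shGFP replicate 1 was left out, 0.041 when shRING1B replicate 1 was, and 0.045 when shRING1B replicate 2 was, and the SK-ES1 median ranged from -0.19 to 0.023 over the alternatives. HOXD13, which shapes the digits and whose mutation causes synpolydactyly, differed in sign from its neighbours in A673. Its values were 9.73 and 9.68 on the SK-ES1 shRING1B arrays, against 9.97 and 9.94 on the SK-ES1 shGFP arrays. In A673 HOXD13 had 9.52 and 9.71 under shRING1B, against 9.93 and 9.99 under shGFP. The shRING1B arrays were the lower ones in both lines without overlap, with changes of -0.25 in SK-ES1 (limma adjusted p = 0.689) and -0.35 in A673 (0.136). The mean change of HOXD13 was -0.30 (SE 0.08, limma adjusted p = 0.128), which did not pass the threshold.

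HOXD11, which patterns the forearm in mouse, is named after its values were seen and lies on the far side of HOXD12 from HOXD13. It had 7.71 and 7.42 under shRING1B in SK-ES1, against 7.70 and 7.67 under shGFP, and the groups overlapped. In A673 it had 8.82 and 8.52 under shRING1B, against 8.19 and 8.13 under shGFP, with no overlap. The A673 change of HOXD11 was 0.51 (SE 0.14, limma adjusted p = 0.0819), the highest of the HOX genes.

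The HOXB genes were mixed, with a median change of -0.03 in SK-ES1 and 0.06 in A673. HOXB4, known for expanding blood stem cells when overexpressed, is named after its values were seen and stood at 0.43 in A673 (limma adjusted p = 0.193), where its shRING1B arrays were 4.38 and 4.94, against 4.26 and 4.20 under shGFP. The lower shRING1B array was nearer to the shGFP arrays than to the other shRING1B array. HOXB2, which acts in the hindbrain, had changes of 0.12 in SK-ES1 and 0.10 in A673, and its neighbour HOXB1 0.18 and 0.06.

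**Figure D2:**
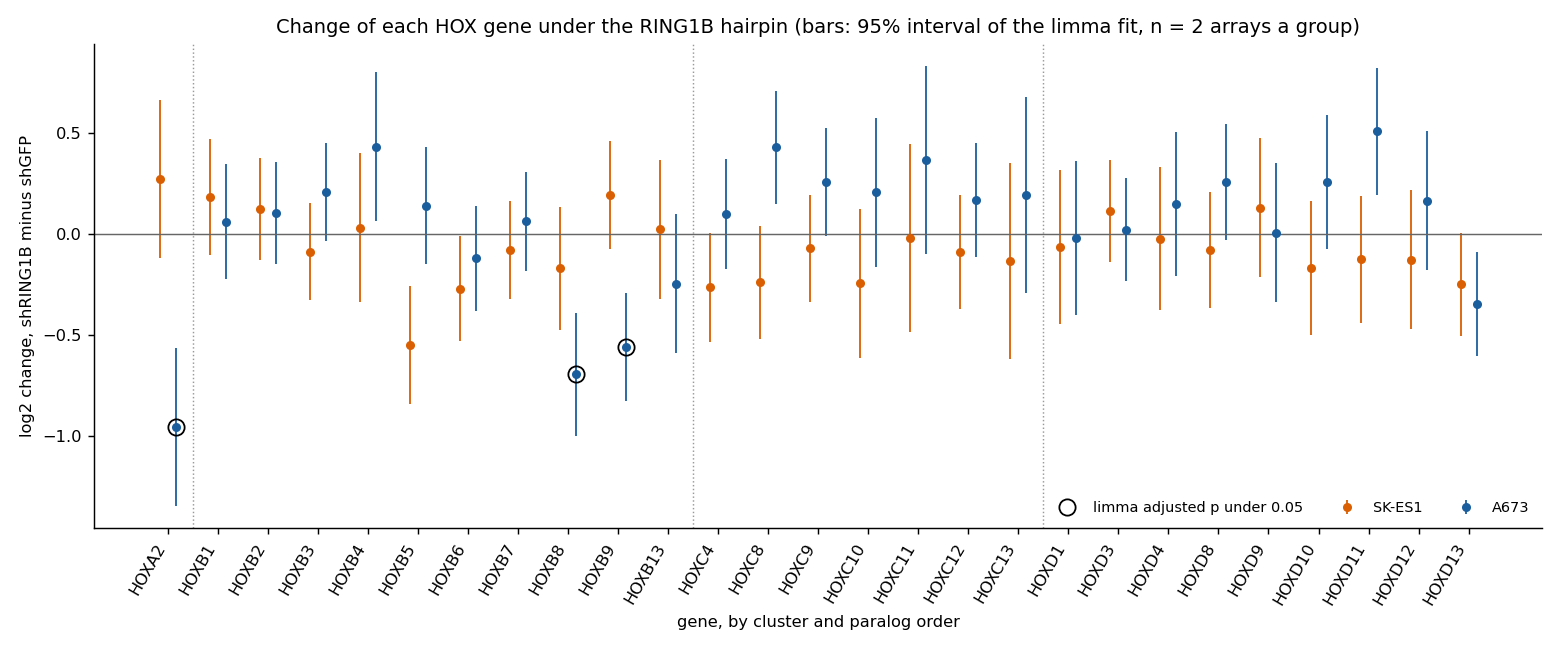
Log2 change of each measured HOX gene, shRING1B minus shGFP (vertical axis), in SK-ES1 and A673, by cluster and paralog order, with bars for the 95% interval of the limma fit and rings for genes with an adjusted p under 0.05. HOXA2, HOXB8 and HOXB9 are ringed in A673 and none in SK-ES1, and the 7 HOXC genes lie above 0 in A673 and below 0 in SK-ES1.

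In SK-ES1 no HOX gene was called, where 10 genes (0.0672%) were called over the array. At an unadjusted p under 0.05 the fit gave 2 of the 27 HOX genes, HOXB5 and HOXB6, both below 0. Over all genes 7.36% passed, so the HOX count is near that share. HOXB5, which in mouse acts in the enteric nervous system, had 4.86 and 4.91 under shRING1B in SK-ES1, against 5.27 and 5.60 under shGFP. Its groups did not overlap, and its change of -0.55 (SE 0.13) had the lowest adjusted p of the HOX genes in SK-ES1 (limma adjusted p = 0.322). In A673 HOXB5 had 4.89 and 4.80 under shRING1B, against 4.69 and 4.71 under shGFP, a change of 0.14.

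HOXB6, which lies next to HOXB5, had 5.67 and 5.73 under shRING1B in SK-ES1, against 5.91 and 6.03 under shGFP. Its change was -0.27 in SK-ES1 (limma adjusted p = 0.663) and -0.12 in A673, where the values were 5.07 and 5.24 under shRING1B against 5.30 and 5.24 under shGFP. Over the 27 genes, 8 had a change above 0 in SK-ES1 and the median was -0.08, against a median of -0.0039 and 49.0% above 0 over all genes. Both SK-ES1 shRING1B arrays lay above both shGFP arrays for 3 HOX genes and below them for 8, where this held for 17.8% and 19.3% of all genes.

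The effects in both lines were compared by the difference of the changes, SK-ES1 minus A673. No HOX gene was called, where 0.786% of all genes were. An unadjusted p under 0.05 was found for 6 of the 27 HOX genes, 3 above 0 and 3 below, and for 13.7% of all genes. HOXA2 had a difference of 1.23 (SE 0.25, limma adjusted p = 0.0593) and HOXB9 one of 0.75 (SE 0.17, limma adjusted p = 0.0885). HOXB5 at -0.69 and HOXC8 at -0.67 had adjusted p-values of 0.143 each, HOXD11 at -0.63 one of 0.21 and HOXB8 at 0.53 one of 0.27. All 7 HOXC differences lay below 0, which follows from the signs of their changes in the lines and adds nothing to them. Their median was -0.36, and none was called.

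The direction of the change was opposite in 18 of the 27 genes, 15 below 0 in SK-ES1 and above 0 in A673 and 3 the other way round, where this held for 25.9% and 22.7% of all genes. For HOXB3, HOXB5, HOXB7, HOXC4 and HOXC8 the shRING1B arrays lay wholly below the shGFP arrays in SK-ES1 and wholly above them in A673, and for HOXB9 the reverse, where this held for 4.84% and 3.86% of all genes. Some of these margins were small. In SK-ES1 the nearest shRING1B and shGFP arrays were 4.581 and 4.589 for HOXB3, and 6.510 and 6.518 for HOXB7. In A673 the nearest arrays of HOXB7 were 6.19 and 6.17. HOXB6 and HOXD13 had shRING1B arrays wholly below shGFP arrays in both lines, for HOXB6 in A673 by a margin within rounding, and no HOX gene had them wholly above in both lines. Over all genes these shares were 5.38% below and 4.60% above. The difference of the effects was not called for any of these genes.

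The genes beside the clusters were read as lists of neighbours, which were chosen with earlier results of these data known. The 7 measured genes flanking the HOXA cluster had a median change of -0.67 in A673. Of these, 4 fell and none rose, where 3.04% of all genes were called lower. They were CBX3, which encodes the heterochromatin protein HP1 gamma (fell by 0.86, limma adjusted p = 0.0165), SKAP2, an adaptor of leukocyte signalling (by 0.81, 0.00515), HIBADH, an enzyme of valine breakdown (by 0.70, 0.0207), and TAX1BP1, an autophagy receptor (by 0.67, 0.0286). HNRNPA2B1 stood at -0.57 (0.0524), JAZF1 at -0.46 (0.102) and EVX1, the homeobox gene nearest to the HOXA cluster, at 0.10 (0.714). On the A673 shRING1B arrays SKAP2 had 4.19 and 4.33 and JAZF1 4.14 and 4.04, near the array medians of 4.07 and 4.01. These levels were not shown to be above background.

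In A673 the HOXA2 values moved with those of genes on both sides of its cluster, and the part of this stretch of chromosome 7 in the HOXA2 result was not tested. In SK-ES1 the same 7 genes had a median change of 0.0025 and none was called. The flanks of the HOXB cluster (5 of 8 measured), the HOXC cluster (4 of 7) and the HOXD cluster (4 of 6) had no called gene in either line. Their medians were -0.019, -0.096 and -0.076 in SK-ES1 and 0.11, 0.096 and 0.019 in A673.

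**Figure D3:**
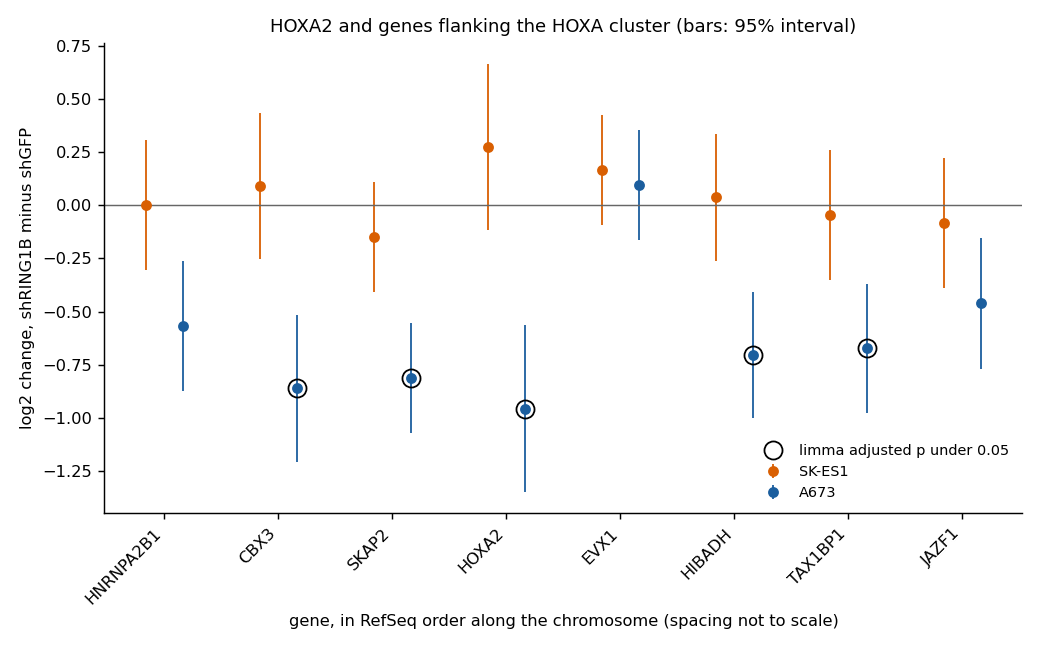
Log2 change, shRING1B minus shGFP (vertical axis), of HOXA2 and of 7 genes flanking the HOXA cluster in RefSeq order, in SK-ES1 and A673, with bars for the 95% interval and rings for an adjusted p under 0.05. In A673 all but EVX1 lie below 0, with 5 genes ringed, while SK-ES1 has none ringed.

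Proteins and RNAs that act with the HOX genes showed no calls under the RING1B hairpin. Of 9 TALE cofactors, the PBX, MEIS and PKNOX homeodomain proteins that bind DNA together with HOX proteins, 7 were measured, with median changes of -0.03 in SK-ES1 and -0.10 in A673. Of 10 regulators of HOX transcription, 8 were measured (CDX1, CDX2, CDX4, MEN1, PSIP1, KDM6A, KDM6B and CTCF), with medians of -0.04 in SK-ES1 and -0.09 in A673. Of 18 noncoding RNAs of the clusters, 9 were measured, with medians of 0.013 in SK-ES1 and 0.11 in A673. HOXD-AS2, an antisense RNA of the HOXD cluster, is named after its values were seen. It had the highest change among these 9 in A673 at 0.53 (limma adjusted p = 0.0567). Its values there were 5.25 and 5.23 under shRING1B against 4.66 and 4.75 under shGFP. In SK-ES1 its change was -0.08.

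More HOX genes were called between the lines than between the hairpins. Under the control hairpin, 18 of 27 HOX genes (66.7%) differed between SK-ES1 and A673, against 30.7% of all genes. Of these, 9 were higher in SK-ES1, where 13.7% of all genes were called higher, and 9 were lower, where 17.0% were. The median absolute difference was 0.47 for HOX genes and 0.24 for all genes, and the median signed difference of HOX genes was -0.0054. This comparison uses the same shGFP arrays as the knockdown comparisons, so that relations between them are not given.

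HOXD9, which acts in the trunk and limb axis in mouse, differed most. It had 4.63 and 5.13 in SK-ES1 shGFP cells, against 7.10 and 7.19 in A673 shGFP cells, a difference of -2.27 (SE 0.16, limma adjusted p = 2.5e-06) or 4.82 times lower. The size of this fold depends on the SK-ES1 values, which were not shown to be above background. The shRING1B arrays were at 4.98 and 5.04 in SK-ES1 and at 7.13 and 7.18 in A673, so the lines were apart under both hairpins. HOXD10 and HOXD11, the next genes of the cluster, were also lower in SK-ES1, by 0.45 and 0.47 on the log2 scale (limma adjusted p of 0.0452 and 0.0285). HOXD13 did not differ detectably, at -0.0054 (95% interval -0.26 to 0.25), nor did HOXD1, HOXD3, HOXD4, HOXD8 and HOXD12 pass the threshold.

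HOXA2 was lower in SK-ES1 shGFP cells than in A673 shGFP cells, a measured difference of -1.66 (SE 0.18, limma adjusted p = 5.6e-05) on the arrays given above. Its SK-ES1 values lay below the array medians, so the size of this difference depends on values that were not shown to be above background. Of the genes flanking the HOXA cluster, 5 of 7 were lower in SK-ES1 and none higher, where 17.0% of all genes were called lower. Their median was -0.70. Among these 7, SKAP2 had 3.05 and 2.99 on the SK-ES1 shGFP arrays, below the array medians. The flanks of the HOXB cluster had 2 genes higher in SK-ES1, where 13.7% of all genes were called higher. Those of the HOXC cluster had 1 higher and 1 lower, and those of the HOXD cluster none called.

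HOXC12, a gene of the hair follicle in mouse, had the largest difference above 0 of the HOX genes. Its values were 6.89 and 6.71 in SK-ES1 shGFP cells, against 5.56 and 5.57 in A673 shGFP cells, a difference of 1.24 (SE 0.13, limma adjusted p = 4.4e-05) or 2.36-fold. Under shRING1B the values were 6.77 and 6.65 in SK-ES1 and 5.85 and 5.62 in A673. HOXC11, with 5.54 and 4.96 in SK-ES1 against 4.38 and 4.60 in A673, was higher by 0.76 (limma adjusted p = 0.0196). HOXC10, which specifies hindlimb motor neurons in mouse, had 6.80 and 6.35 in SK-ES1 against 5.90 and 5.97 in A673 and was higher by 0.64 (0.0142). HOXC8 was higher by 0.61 (0.00423), while HOXC9, between HOXC8 and HOXC10, was lower in SK-ES1 at -0.49 (0.0101).

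Of the 10 HOXB genes, 9 were called between the lines, 5 higher and 4 lower in SK-ES1. HOXB1, HOXB2 and HOXB3, which act in the hindbrain, were lower in SK-ES1, and HOXB5, HOXB6, HOXB7, HOXB9 and HOXB13 were higher, with HOXB8 lower and HOXB4 not called. HOXB3 had 4.65 and 4.59 in SK-ES1 shGFP cells, against 5.32 and 5.34 in A673 shGFP cells, a difference of -0.71 (limma adjusted p = 0.000656). HOXB2 had 6.65 and 6.52 in SK-ES1, against 7.19 and 7.21 in A673, a difference of -0.62 (0.00221). Neither pair of groups overlapped.

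HOXB13, a gene of the tail bud and the prostate, had 7.47 and 7.27 in SK-ES1 shGFP cells, against 6.56 and 6.56 in A673 shGFP cells, and was higher by 0.81 (SE 0.15, limma adjusted p = 0.00265). HOXB5 was higher by 0.73 (0.00179) and HOXB6 by 0.70 (0.00115), on the shGFP arrays given above. HOXB9 was higher by 0.56 (0.00542) and HOXB7 by 0.41 (0.0156). HOXB8 and HOXB1 were lower, at -0.42 (0.0391) and -0.38 (0.0488).

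Of the 18 calls, 10 were kept in every alternative in which they were tested (HOXA2, HOXB2, HOXB3, HOXB5, HOXB6, HOXB9, HOXB13, HOXC8, HOXC12 and HOXD9). The other 8 were lost in some, HOXB1 in 8 of 15, HOXD10 in 7, HOXB8 in 6, HOXD11 in 4, HOXB7 and HOXC10 in 3 each and HOXC9 and HOXC11 in 2 each. The count was 10 without A673 shGFP replicate 1 and 11 without SK-ES1 shGFP replicate 1.

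**Figure D4:**
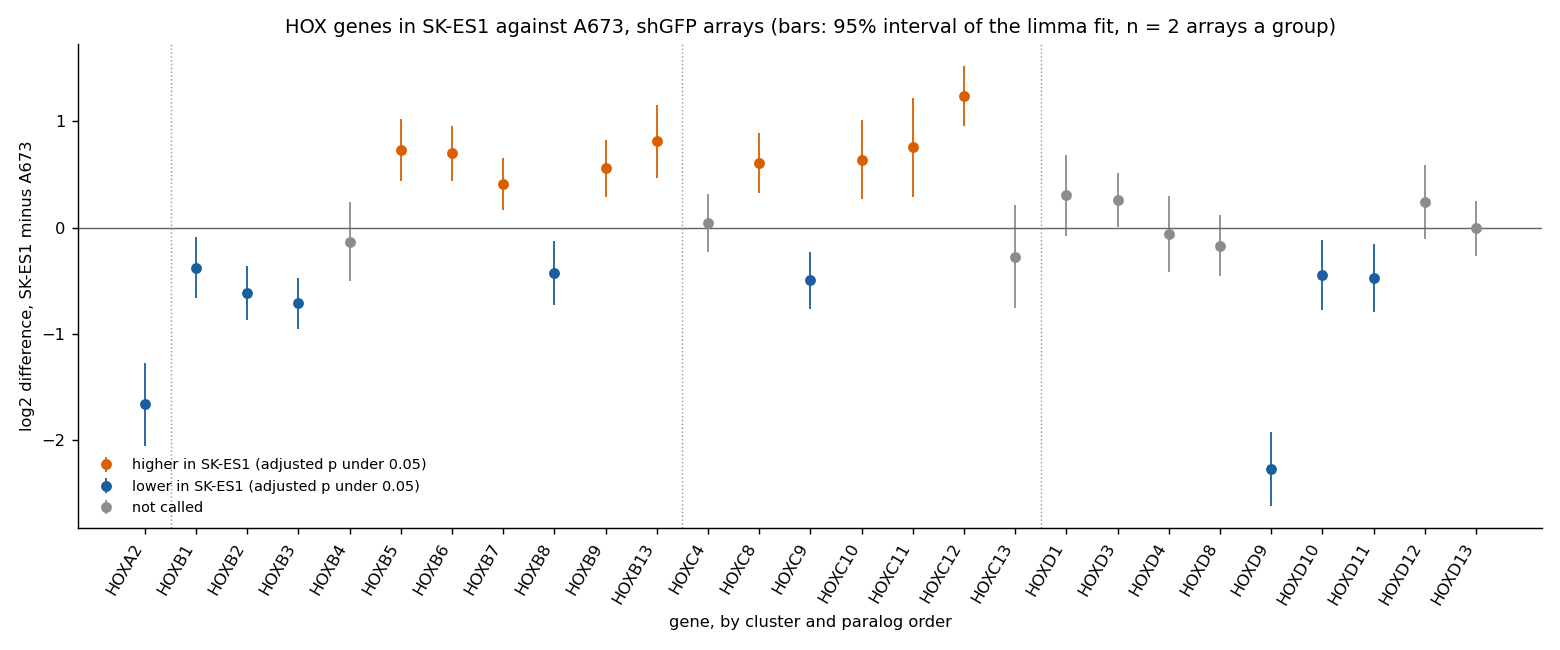
Log2 difference of each measured HOX gene between SK-ES1 shGFP and A673 shGFP arrays, SK-ES1 minus A673 (vertical axis), by cluster and paralog order, with bars for the 95% interval of the limma fit. The 9 genes higher in SK-ES1 lie in the HOXB and HOXC clusters, and the 9 lower ones include HOXA2 at -1.66 and HOXD9 at -2.27.

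Among the partners of the HOX genes, 4 of 7 TALE cofactors, 2 of 8 regulators and 2 of 9 noncoding RNAs were called between the lines under shGFP, where 30.7% of all genes were. PBX3 was higher in SK-ES1 by 0.43, and MEIS1, PBX4 and PBX2 were lower, at -1.06, -0.90 and -0.43. Of the regulators, KDM6B and KDM6A, the H3K27 demethylases that oppose Polycomb repressive complex 2, were lower in SK-ES1 at -1.57 and -0.87. Of the noncoding RNAs, HOXD-AS2 was higher by 0.42 and HOXA-AS3 lower at -0.54. HOXA-AS3 had 3.99 and 3.92 on the SK-ES1 shGFP arrays, below the array medians and not shown to be above background.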

How the data were processed

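The deposited values are log2 expression levels, 1 per probe set and array, for 48144 probe sets on 8 arrays. Per the submitters' processing notes, the authors used RMA, which corrects background, normalizes arrays by quantiles and summarises probe sets, and limma, with no versions given. Quantile normalization hides a shift shared by most genes. Per the labels' protocols, biotin labelling started from 30 ng of total RNA. The sources used here name no array version or upstream annotation. Signal over background was not measured, since scanner files were not used, and precision is limited by the number of arrays.

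Probe sets were named through the platform annotation, in which 16098 had 1 gene symbol and 0 had several, and the probe set with the highest mean stood for each of 14884 genes. For HOXD4, the second probe set had changes of -0.20 in SK-ES1 and 0.09 in A673, against -0.02 and 0.15 for the one used. A model with 4 group means was fitted to all genes with limma 3.58.1 in R 4.3.3 (4 residual degrees of freedom), p-values are two-sided and Benjamini-Hochberg adjusted over 14884 genes, and a gene was called at an adjusted p under 0.05. The fit was tested on simulated data.

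Values on every array were to be printed for members called under a hairpin or in the difference of effects, for up to 10 called members with the largest difference between the lines under shGFP and for the highest member of each cluster. Other members are named for their place or, where said, after their values were seen. The members and the lists (flanking genes, TALE cofactors, regulators, noncoding RNAs, markers) were chosen with earlier results of these data known. The lists were to get counts and medians only, with no set test. Beyond that plan, single list genes are given with their changes, named for a call, a rank or their place. Groups come from the cell line and hairpin in the labels, and replicate numbers only name an array. Alternatives were repeated quantile normalization, cyclic loess, a trended robust variance, dim genes left out, other probe set rules, only the arrays compared and each array left out. No 2 arrays were identical.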

Additional observations from a re-analysis of the deposited data

How the results depend on the processing

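No HOX gene that was called changed direction in any alternative in which it was tested. In A673 a trended robust variance added HOXC8 and HOXD11, called above 0, and HOXD13, called below 0. HOXD11 was called above 0 in 2 of the 15 alternatives. The A673 count of 3 called HOX genes was 6 with a trended robust variance and 1 with only the 4 arrays compared. It ranged from 0 to 3 with each array left out in turn, with HOXB4 called above 0 (limma adjusted p = 0.0414) without A673 shRING1B replicate 1. In SK-ES1 the count was 0 in all 15. For the mean effect the count of 0 was 2 with a trended robust variance (HOXB8 and HOXD13) and 1 with dim genes left out (HOXB8). For the difference of the effects the count of 0 was 2 with a trended robust variance (HOXA2 and HOXB9) and 1 with dim genes left out (HOXB9). Between the lines the count of 18 ranged from 10 to 18 with each array left out and lay between 15 and 18 in the others. The cause of these shifts was not tested, except that dim genes left out takes HOXA2 out of the test. Over all genes, the counts of 557 in A673, 10 in SK-ES1, 202 for the mean, 117 for the difference and 4572 between the lines ranged from 101 to 1052, 2 to 34, 51 to 481, 0 to 281 and 3160 to 4964. The median change of the HOXC genes stayed above 0 in A673 (0.17 to 0.36) and below 0 in SK-ES1 (-0.23 to -0.017) in all 15, and the median over the HOX genes was 0.15 in A673 without HOXA2, an alternative chosen after seeing the data. The HOXB median kept its sign in 14 of 15 in A673 and in 14 of 15 in SK-ES1, and the HOXD median in SK-ES1 in 13 of 15. No paired analysis was possible because replicate numbers were given in accession order. The 2 arrays per group limit what could be called: the HOX gene standard errors in the knockdown comparisons ran from 0.11 to 0.22 on the log2 scale.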
